A study of Mus musculus with 4 samples.

Results

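The 10 genes that mark or direct the choice between the CD4 and CD8 T cell lineages were followed through chromatin accessibility in mouse inguinal white adipose tissue: Cd4, Cd8a, Cd8b1, Zbtb7b, Runx3, Gata3, Foxp3, Tcf7, Lef1 and Bcl11b. Each gene was measured by the deposited peaks on its gene body and the 2000 bases upstream of it. This gave 111 of the 189598 peaks, and 10 of the 17196 protein-coding genes with any peak. Single-nucleus ATAC-seq, in which a transposase cuts open chromatin in isolated nuclei, had been run on inguinal fat of male C57BL/6 mice aged 8 weeks. D0_RT mice were kept at room temperature (22 °C), D1_C, D3_C and D7_C mice were exposed to cold (6.5 °C) for 1, 3 or 7 days, and D1_CL, D3_CL and D7_CL mice received the β3-adrenergic agonist CL-316,243 (1 mg/kg) at room temperature for 1, 3 or 7 days. Each of the 7 groups held 3 mice, and the 32552 nuclei carry the authors' labels for 12 clusters, among them Cd4 (3741 nuclei), Cd8 (4463 nuclei), Tcell (1610 nuclei) and Bcell (11967 nuclei). The matrix records only whether a peak was open in a nucleus, so values are entries, summed here per mouse and cluster.

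Mature T cells descend from thymocytes that express both coreceptors, CD4 and CD8, and then keep one. CD4 binds MHC class II and marks helper and regulatory T cells, while CD8, a dimer of the Cd8a and Cd8b1 products, binds MHC class I and marks cytotoxic T cells. Zbtb7b encodes ThPOK, the zinc-finger repressor that commits cells to the CD4 lineage, and Runx3 encodes the RUNX factor of the CD8 lineage, which silences Cd4. Gata3 acts upstream of Zbtb7b, Foxp3 specifies regulatory T cells, and Tcf7 (TCF-1), Lef1 and Bcl11b serve T cell identity in both lineages. A silencer in the first intron of Cd4, bound by RUNX factors, is the textbook element that shuts Cd4 off in CD8 cells.

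In the 3 T cell clusters, 20 of the 21 mice gave at least 10 nuclei per cluster, with 16 to 263 Cd4, 33 to 349 Cd8 and 17 to 120 Tcell nuclei. D3_CL replicate 2 had 4 to 9 nuclei per T cell cluster and was left out, so D3_CL rests on 2 mice in these clusters. D1_CL replicate 3 had 16 to 33 nuclei and D3_C replicate 1 had 19 to 43, and these were the thinnest libraries kept. The median nucleus held 907 entries in Cd4, 1035 in Cd8, 1012 in Tcell and 974 in Bcell. All 12 T cell markers were more open in the T cell clusters than in Bcell, and all 8 B cell markers were less open. The T cell markers summed to 2489.6 ± 249 CPM in Cd4, 2605 ± 195 CPM in Cd8 and 2193 ± 240 CPM in Tcell (SD, n = 20 each), against 659.5 ± 70.2 CPM in Bcell (SD, n = 21). CPM, for counts-per-million, scales the entries of a gene to the entries of the same library summed over all genes. B cell markers still summed to 377 ± 112, 365 ± 99.3 and 358 ± 93.7 CPM in Cd4, Cd8 and Tcell against 2761 ± 161 CPM in Bcell, and how far such entries enter the values below was not tested. The clusters were made by the authors from the same entries, so a p-value between clusters describes the spread between mice and is not independent evidence that a gene separates them.

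The peaks that carry most of what follows are shown as 300 bases around their centre, read from the GRCm38.p6 RefSeq genome (the mm10 build) on the strand of the gene, 5′ to 3′. Capitals mark short motifs: TGTGGT or its complement ACCACA, the core bound by RUNX factors, AGATAA or TTATCT of GATA factors, CTTTGA or TCAAAG of TCF/LEF factors, and the E-box CAGCTG. Both strands were searched, and matches of different motifs did not overlap. The first and second lie in intron 1 of Cd4, centred 2043 and 2794 bases from the gene start. They are shown because in Cd8 nuclei the first was near its Cd4 level and the second was below it.
Cd4 intron 1, peak at 2043 bases, chr6:124886029-124886328, - strand: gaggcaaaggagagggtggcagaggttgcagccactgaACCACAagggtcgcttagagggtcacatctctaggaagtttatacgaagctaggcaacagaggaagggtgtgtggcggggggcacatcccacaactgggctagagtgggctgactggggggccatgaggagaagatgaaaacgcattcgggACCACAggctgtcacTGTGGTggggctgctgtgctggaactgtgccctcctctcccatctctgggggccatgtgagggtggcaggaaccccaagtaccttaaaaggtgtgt
Cd4 intron 1, peak at 2794 bases, chr6:124885278-124885577, - strand: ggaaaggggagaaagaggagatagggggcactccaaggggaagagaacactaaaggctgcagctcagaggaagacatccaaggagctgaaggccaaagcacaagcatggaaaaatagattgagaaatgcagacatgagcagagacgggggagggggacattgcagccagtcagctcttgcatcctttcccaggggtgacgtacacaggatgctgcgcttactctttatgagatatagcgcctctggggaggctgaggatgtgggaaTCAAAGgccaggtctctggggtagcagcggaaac
The next covers exon 1 and the start of Cd8a, and the one after lies between the end of Cd8b1 and the start of Cd8a, outside both genes. They are shown because both were higher in Cd8 than in Cd4 in all 20 mice.
Cd8a start, chr6:71373314-71373613, + strand: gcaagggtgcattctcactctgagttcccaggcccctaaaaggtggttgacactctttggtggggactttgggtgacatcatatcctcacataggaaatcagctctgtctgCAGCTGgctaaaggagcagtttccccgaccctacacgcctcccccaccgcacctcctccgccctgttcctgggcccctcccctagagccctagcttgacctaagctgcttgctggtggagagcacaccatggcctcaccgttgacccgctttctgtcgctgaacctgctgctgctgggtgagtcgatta
Cd8b1 to Cd8a, chr6:71342890-71343189, + strand: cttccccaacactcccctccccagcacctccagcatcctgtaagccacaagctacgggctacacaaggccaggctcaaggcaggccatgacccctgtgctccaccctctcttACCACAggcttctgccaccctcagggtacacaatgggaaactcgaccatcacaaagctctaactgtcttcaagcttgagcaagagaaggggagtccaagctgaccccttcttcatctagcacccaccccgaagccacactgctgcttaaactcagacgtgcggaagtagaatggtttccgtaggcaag
The Zbtb7b peak lies in intron 1 and is shown because its entries were mostly in Cd4. The Runx3 peak is shown because it covers the start of the long transcript Runx3-201. The 300 bases printed for it end upstream of that start. The Foxp3 peak is shown because its entries were mostly in Tcell. It is intronic, downstream of the starts of several protein-coding transcripts, such as Foxp3-206, and upstream of the Foxp3-201 start.
Zbtb7b intron 1, chr3:89382085-89382384, - strand: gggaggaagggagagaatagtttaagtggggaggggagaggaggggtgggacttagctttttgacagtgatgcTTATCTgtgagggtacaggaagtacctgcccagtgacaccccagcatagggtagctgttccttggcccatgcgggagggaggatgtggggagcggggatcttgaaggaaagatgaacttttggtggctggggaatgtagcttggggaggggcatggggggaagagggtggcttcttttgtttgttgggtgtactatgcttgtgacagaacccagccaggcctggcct
Runx3 start, chr4:135120271-135120570, + strand: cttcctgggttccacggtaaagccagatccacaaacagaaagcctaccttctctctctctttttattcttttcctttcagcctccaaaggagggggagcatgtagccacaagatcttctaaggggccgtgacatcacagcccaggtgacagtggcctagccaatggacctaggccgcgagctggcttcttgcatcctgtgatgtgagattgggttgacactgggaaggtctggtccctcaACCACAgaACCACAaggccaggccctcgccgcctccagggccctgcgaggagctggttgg
Foxp3 intron, chrX:7584001-7584300, + strand: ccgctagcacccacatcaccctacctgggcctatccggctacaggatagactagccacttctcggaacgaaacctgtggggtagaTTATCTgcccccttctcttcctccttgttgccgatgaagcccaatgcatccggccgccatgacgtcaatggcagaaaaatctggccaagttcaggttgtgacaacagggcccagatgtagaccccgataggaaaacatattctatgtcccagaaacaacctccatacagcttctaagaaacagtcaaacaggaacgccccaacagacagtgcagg
The Cd4 peak centred 2043 bases from the gene start held 3 RUNX matches, the Runx3 start peak held 2, and the Cd8b1 to Cd8a peak held 1. Over all members, 26 of 111 peaks (23.4%) held a RUNX match within this window, beside 22.7% of all 189598 peaks. The TCF/LEF motif was in 20.7% of member peaks and 19.1% of all peaks, the GATA motif in 7.21% and 12.4%, the E-box in 20.7% and 20.0%, and the ETS motif ACCGGAAGT in 1.80% and 0.218%, the last being 2 member peaks. The members therefore held RUNX, TCF/LEF and E-box letters about as often as peaks at large. A match is a string of letters and not a measured binding site.

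**Figure D1:**
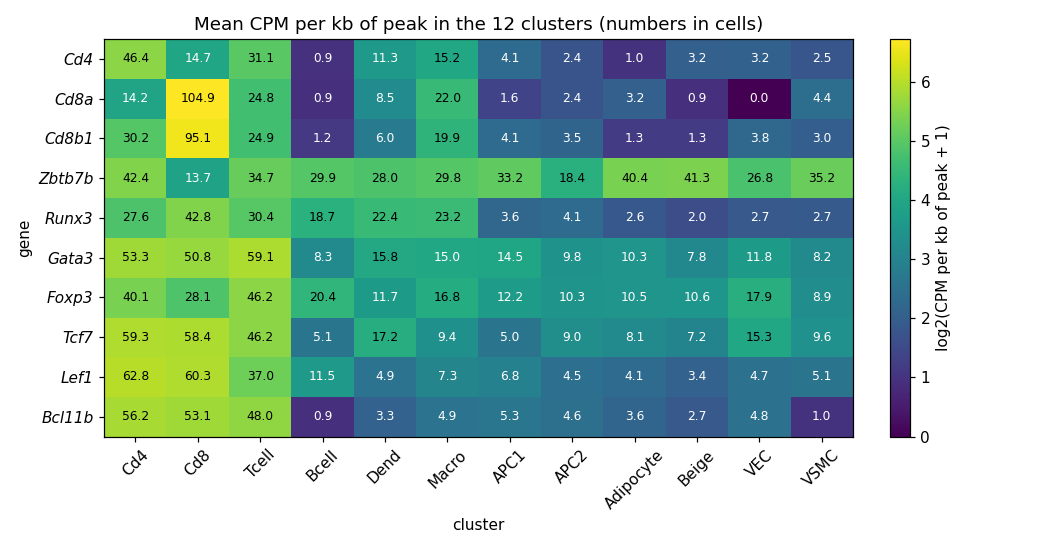
Mean CPM per kb of peak for each gene (rows) in each of the 12 clusters (columns), with the colour on a log2(value + 1) scale and the value printed in the cell. Cd8a stands at 104.9 in Cd8, Bcl11b is at 48.0 or more in the 3 T cell clusters and at 5.29 or less elsewhere, and Zbtb7b is open in all clusters with its lowest value, 13.7, in Cd8.

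Across the 12 clusters, all 10 genes had their highest mean level in a T cell cluster, and Zbtb7b was open throughout. Scaled to the summed length of their peaks, the levels in Cd4 nuclei ran from 14.2 CPM per kb for Cd8a to 62.8 CPM per kb for Lef1. Bcl11b fell from 56.2 CPM per kb in Cd4, 53.1 in Cd8 and 48.0 in Tcell to 5.29 or less in each of the other 9 clusters. Cd4 itself was at 46.4 CPM per kb in Cd4, 31.1 in Tcell, 15.2 in Macro and 14.7 in Cd8, followed by 11.3 in Dend. Cd8a reached 104.9 CPM per kb in Cd8 against 24.8 in Tcell, 22.0 in Macro and 14.2 in Cd4. By mean, Macro and Dend thus held entries at Cd4 near the Cd8 level, and Macro held entries at Cd8a above the Cd4 level. The entries were few, 43 in Macro and 17 in Dend at Cd4 and 26 in Macro at Cd8a. The mice at 0 were 5 of 21, 7 of 17 and 8 of 21. The medians, 22.6 and 12.9 CPM at Cd4, were below the 28.1 CPM of Cd8. At Cd8a the Macro median, 10.5 CPM, was below the 12.9 CPM of Cd4. Whether these entries come from T cell nuclei placed in those clusters was not tested.

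Zbtb7b stood at 42.4 CPM per kb in Cd4, 41.3 in Beige, 40.4 in Adipocyte, 35.2 in VSMC and 34.7 in Tcell, neighbours in this order whose spreads over mice overlap. Cd8 was the lowest of the 12 clusters at 13.7. Runx3 was shared by the immune clusters, with 42.8 CPM per kb in Cd8, 30.4 in Tcell, 27.6 in Cd4, 23.2 in Macro, 22.4 in Dend and 18.7 in Bcell, and 4.11 or less in the other 6. Lef1, known from early B cell development too, kept 11.5 CPM per kb in Bcell, its highest value outside the T cell clusters.

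**Figure D2:**
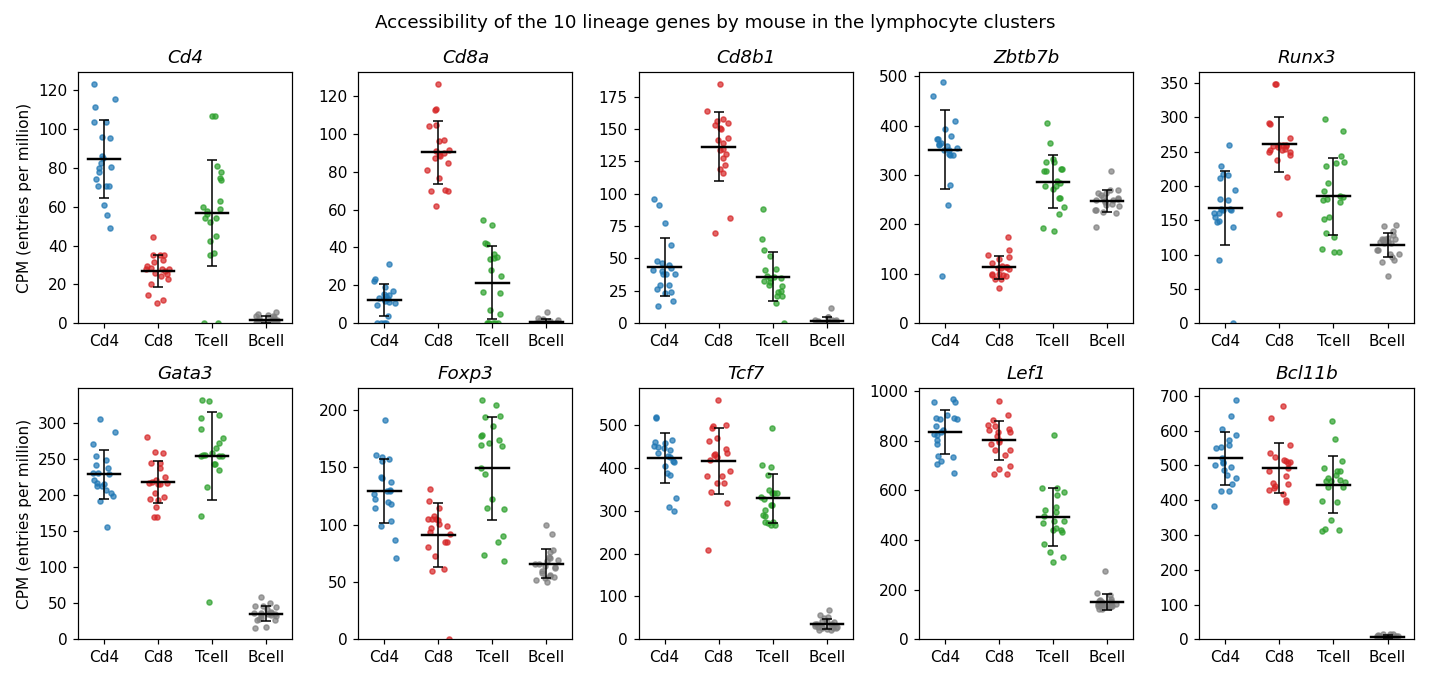
CPM of the 10 genes in the Cd4, Cd8, Tcell and Bcell clusters, 1 point per mouse, with the mean (thick line) and SD (bars), on axes starting at 0. Cd8a points of Cd4 (0 to 31.1 CPM) and Cd8 (61.8 to 126 CPM) do not overlap, while Gata3, Tcf7, Lef1 and Bcl11b points of Cd4 and Cd8 overlap.

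Between the Cd4 and Cd8 clusters the coreceptors and the 2 lineage factors differed in opposite directions and Foxp3 differed slightly. Gata3, Tcf7, Lef1 and Bcl11b did not pass the test. In edgeR's quasi-likelihood test with the mouse as a block, 6 of the 10 genes passed an adjusted p of 0.05, 3 higher in Cd4 and 3 higher in Cd8, beside 17.9% of all 9124 genes tested. The median log2 fold change of the 10 genes was 0.03, and that of all genes 0.01. Cd4 was at 49.0 CPM in the lowest, 81.4 in the median and 123 in the highest mouse of the Cd4 cluster, and at 10.2, 28.1 and 44.3 CPM in the Cd8 cluster. The 2 ranges did not overlap, and Cd4 was higher in the Cd4 cluster in 20 of 20 mice, by 1.63 ± 0.145 on the log2 scale (SE, adjusted p = 6.54e-23, edgeR).

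Cd8a and Cd8b1, the 2 chains of CD8, showed the reverse. Cd8a was at 0, 12.9 and 31.1 CPM (lowest, median and highest mouse) in Cd4 and at 61.8, 89.3 and 126 CPM in Cd8, a log2 fold change of -2.89 ± 0.182 (SE, adjusted p = 1.68e-39, edgeR) with 0 of 20 mice higher in Cd4. Cd8b1 was at 13.4, 39.3 and 95.7 CPM in Cd4 and at 69.7, 141 and 185 CPM in Cd8, a log2 fold change of -1.92 ± 0.117 (SE). The 2 Cd8b1 ranges overlapped, with 1 of 20 mice higher in Cd4. That mouse was D1_CL replicate 3, with 16 Cd4 and 33 Cd8 nuclei, and it gave both the highest Cd4 and the lowest Cd8 value. Its Cd4 library held 10453 gene entries, the fewest of those kept. One of its 3 peaks, at the gene start, is also counted for the neighbouring gene Smyd1.

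Zbtb7b had the largest rise towards Cd4 of the 10 genes in log2 fold change, from 72.2, 112 and 174 CPM in Cd8 to 95.7, 361 and 489 CPM in Cd4 (lowest, median and highest mouse). Its log2 fold change was 1.71 ± 0.0684 (SE, adjusted p = 1.77e-73, edgeR), with 19 of 20 mice higher in Cd4. The lowest Cd4 value, 95.7 CPM, came from the 16 nuclei of D1_CL replicate 3. Runx3 was at 0, 166 and 260 CPM in Cd4 and 160, 257 and 349 CPM in Cd8, a log2 fold change of -0.59 ± 0.067 (SE) with 1 of 20 mice higher in Cd4. The value of 0 again came from those 16 nuclei.

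Foxp3 was higher in Cd4 by 0.32 ± 0.0889 (log2, SE, adjusted p = 0.00423, edgeR), with means of 130 ± 28.0 and 90.9 ± 28.0 CPM (SD, n = 20 each) and 18 of 20 mice higher in Cd4. It was no longer past the threshold with promoter peaks alone (0.29) or in nuclei of at least median depth (0.12). Promoter peaks are those within 2000 bases of the annotated gene start. For Foxp3 these are 2 peaks that are both also counted for the neighbour Ppp1r3f. All Foxp3 transcripts but Foxp3-209 start 5923 bases or more from that start, so this setting cannot say whether their promoters differ. Gata3 stood at 228 ± 34.0 CPM in Cd4 and 218 ± 29.6 CPM in Cd8, and Tcf7 at 422 ± 58.4 and 415.5 ± 77.02 CPM (SD, n = 20 each). Lef1 stood at 835 ± 87.3 and 801 ± 80.2 CPM and Bcl11b at 520 ± 76.3 and 492 ± 72.2 CPM. The log2 fold changes of these 4 genes were 0.02 ± 0.063, -0.03 ± 0.0492, 0.03 ± 0.041 and 0.08 ± 0.0454 (SE), with adjusted p from 0.228 to 0.879 (edgeR).

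**Figure D3:**
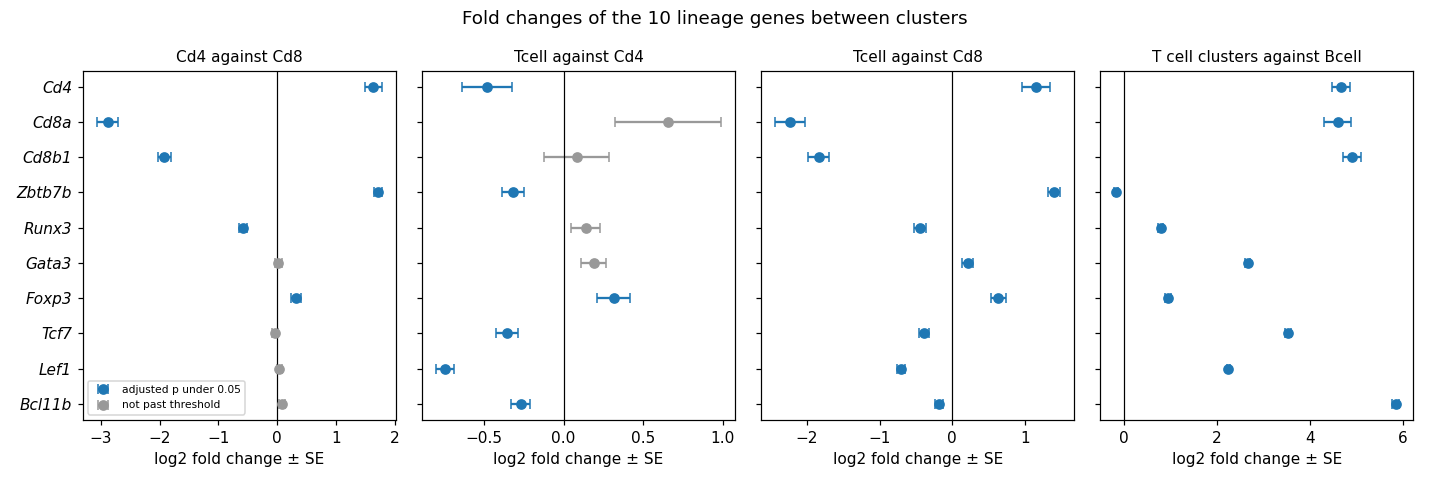
Log2 fold changes (points) with standard errors (bars) of the 10 genes in 4 cluster comparisons, each panel with its own horizontal scale. Blue points passed an adjusted p of 0.05 (edgeR), 6 of 10 in Cd4 against Cd8, and grey points did not.

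Shares of single nuclei with an entry were then counted. An entry at Cd4 was present in 8.42% of Cd4 nuclei (95% exact interval 7.55 to 9.36), 3.27% of Cd8, 7.58% of Tcell and 0.192% of Bcell nuclei. An entry at Cd8a or Cd8b1 was present in 23.7% of Cd8 nuclei (22.4 to 25.0), 5.05% of Cd4, 6.83% of Tcell and 0.267% of Bcell nuclei. With every nucleus thinned to 500 entries, the Cd4 shares were 3.63%, 1.27%, 2.51% and 0.0579% in Cd4, Cd8, Tcell and Bcell, and the Cd8a or Cd8b1 shares 2.09%, 10.1%, 2.36% and 0.0772%. Thinning left out the shallower nuclei and kept 3115 Cd4, 3862 Cd8, 1354 Tcell and 10359 Bcell nuclei. Each T cell cluster was above Bcell, whose nuclei should lack both coreceptors, for both. Bcell had the lowest mean of the 12 clusters at Cd4 and Cd8b1, so it is a low reference. At Cd4 it was at 1.71 CPM, beside 1.77 in Adipocyte and 7.41 in APC1. At Cd8b1 it was at 1.65 CPM, beside 1.82 and 5.88. Shares of nuclei were not counted in those clusters. Entries at both coreceptors in 1 nucleus were found in 0.535% of Cd4, 1.43% of Cd8 and 0.807% of Tcell nuclei. After thinning these shares were 0.0963% (3 nuclei), 0.181% (7 nuclei) and 0.0739% (1 nucleus). How far barcode collisions enter them was not tested. The intervals cover counting error only.

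Within Cd4, accessibility in Cd8 nuclei differed by element. The peak at the gene start, over the first exon, held 81 entries in Cd4 and 10 in Cd8, or 18.1 and 1.58 peak CPM with nuclei summed. Peak CPM scales the entries of a peak to the entries of the library over all peaks, so it is not on the scale of the gene CPM above. The second intron 1 peak shown above, centred 2794 bases in, held 174 and 36 entries, or 38.8 and 5.71 peak CPM, and was found in all 20 Cd4 libraries at 15.1 to 82.6 peak CPM and at 0 to 12.6 peak CPM in Cd8. The first, with the 3 RUNX matches and centred 2043 bases in, held 85 and 103 entries, or 19.0 and 16.3 peak CPM. By mouse it was at 16.2 ± 10.2 peak CPM in Cd4, 15.9 ± 8.02 in Cd8 and 15.0 ± 10.7 in Tcell (SD, n = 20 each), against 0.496 ± 1.00 in Bcell (n = 21). This peak was thus open in Cd8 at about its Cd4 level while the levels of the gene start and the neighbouring peak there were lower. The 4 Cd4 peaks were too sparse for the filter on low counts and were not among the 20 of 111 member peaks tested. Without that filter the start peak differed by 3.01 ± 0.378 and the peak at 2794 bases by 2.57 ± 0.241 (log2, SE), both past the threshold, and the peak at 2043 bases by 0.09 ± 0.229 (adjusted p = 0.997, edgeR). Without the filter 25 of 111 member peaks passed, beside 3.69% of 181991 peaks tested.

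Of the 20 member peaks tested, 7 passed the threshold between Cd4 and Cd8, 3 higher in Cd4 and 4 higher in Cd8, beside 10.4% of all 7202 peaks tested. The Cd8a start peak, over exon 1, was at 4.80 ± 5.51 peak CPM in Cd4 and 53.0 ± 9.20 in Cd8 (SD, n = 20 each), a log2 fold change of -3.39 ± 0.226 (SE) with all 20 mice higher in Cd8. The Cd8b1 start peak was at 26.9 ± 17.6 and 69.6 ± 15.7 peak CPM, a smaller log2 fold change of -1.63 ± 0.135 (SE), and it is the peak shared with Smyd1.

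Peaks outside the rule, but with the start of a member as their nearest gene start within 50 kb, were examined too. The peak between Cd8b1 and Cd8a shown above was at 6.84 ± 5.42 peak CPM in Cd4 and 76.1 ± 17.3 in Cd8 (SD, n = 20 each), with 0 of 20 mice higher in Cd4 and a log2 fold change of -3.32 ± 0.178 (SE). Of the 15 such peaks around the 2 Cd8 genes, 3 were tested, and all 3 were higher in Cd8. Without the filter, 13 of the 15 were higher in Cd8, beside 2.82% of all 181991 peaks. The one shown was at 9.79 ± 10.5 peak CPM in Tcell and 0.527 ± 0.701 in Bcell. Around Runx3 1 of 11 such peaks was tested, centred at -40377 bases from the gene start, and it was higher in Cd8 (26.9 ± 13.05 against 70.6 ± 18.6 peak CPM in Cd4 and Cd8). Without the filter all 11 had a negative log2 fold change, from -2.36 to -0.43. Those centred at -35004, -34455 and -17719 bases did not pass, and the rest were higher in Cd8, beside 2.82% of all 181991 peaks. The share of all peaks with a negative value was not counted. Around Tcf7 3 of 10 such peaks were tested. The one centred at -31349 bases was higher in Cd4 (124 ± 38.6 against 100.4 ± 24.1 peak CPM), the one at -16833 bases was higher in Cd8 (64.5 ± 38.1 against 86.3 ± 28.4 peak CPM), and the one at -26609 bases did not pass (55.8 ± 27.7 against 47.0 ± 17.7 peak CPM). Without the filter the peak at -31349 bases did not pass (0.22 ± 0.068, log2, SE, adjusted p = 0.163, edgeR). The peak at -16833 bases still passed there (-0.63 ± 0.0994). None of the peaks outside the rule around Cd4, Gata3, Foxp3, Lef1 and Bcl11b held enough entries to be tested. Without the filter, a Lef1 peak centred at -16554 bases was higher in Cd4 by 1.44 ± 0.347 (log2, SE, adjusted p = 0.00186, edgeR). The rest of these peaks did not pass.

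**Figure D4:**
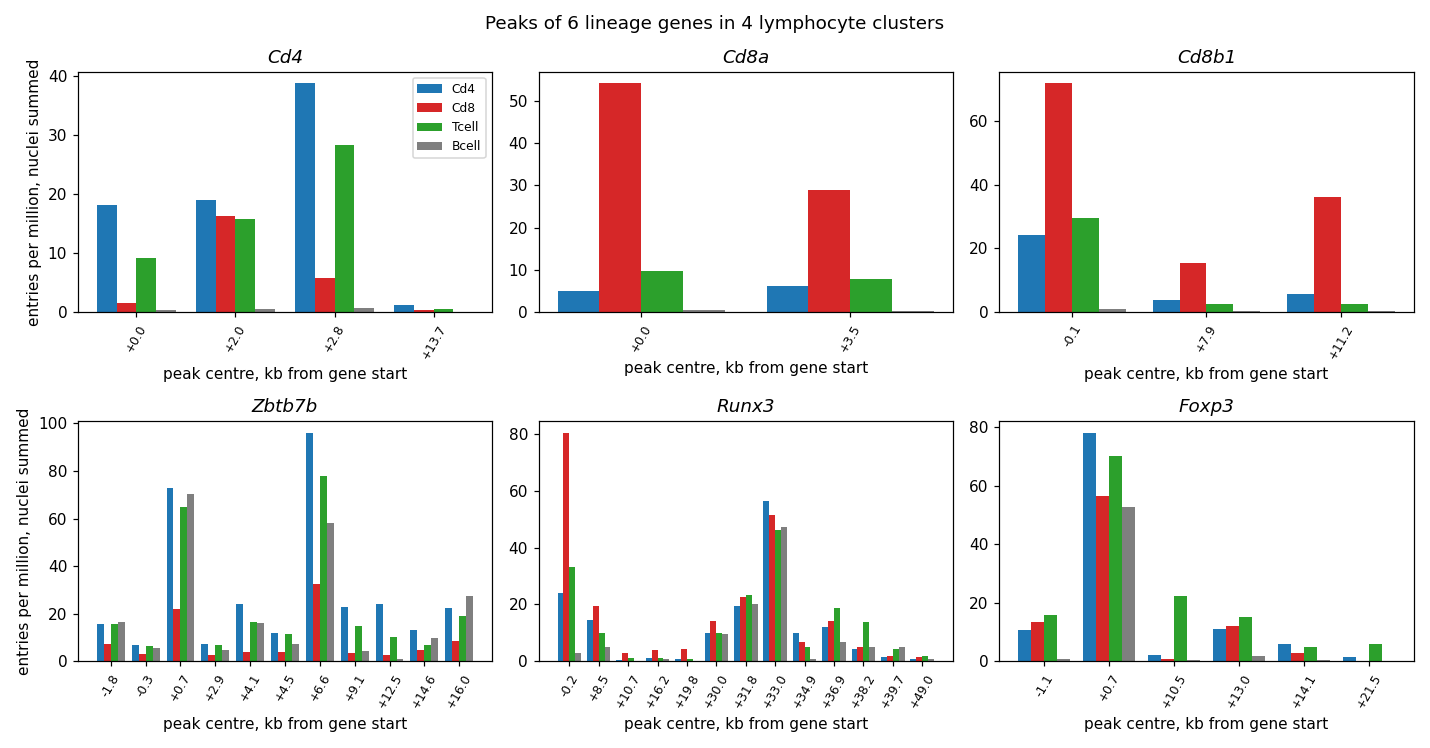
Peak CPM (entries scaled to all entries of the cluster), with the nuclei of all mice summed, at each peak of 6 genes in the Cd4, Cd8, Tcell and Bcell clusters, placed in order of the distance of the peak centre from the gene start in kb. The Cd4 peak at 2.0 kb is of like height in Cd4 and Cd8, the Runx3 peak at -0.2 kb is highest in Cd8 and the one at 33.0 kb is level, and the Foxp3 peak at 10.5 kb is seen mainly in Tcell.

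Runx3 is known to have a distal and a proximal promoter, and peaks cover the annotated starts of its long and short transcripts. The start peak of the long transcript, shown above with its pair of ACCACA strings 2 bases apart, was at 22.4 ± 11.6 peak CPM in Cd4, 84.0 ± 29.0 in Cd8, 32.4 ± 19.9 in Tcell (SD, n = 20 each) and 3.62 ± 4.46 in Bcell (n = 21). All 20 mice were higher in Cd8 than in Cd4, with a log2 fold change of -1.77 ± 0.131 (SE). The peak centred 31750 bases from the gene start covers the start of Runx3-202, the shorter protein-coding transcript. It was at 18.4 ± 8.48 peak CPM in Cd4, 22.3 ± 7.87 in Cd8, 21.03 ± 15.5 in Tcell and 19.8 ± 7.19 in Bcell, with 14 of 20 mice higher in Cd8. It was too sparse for the filter on low counts, and without that filter it differed by -0.36 ± 0.209 (log2, SE, adjusted p = 0.747, edgeR). The next peak, centred 33048 bases from the gene start, covers the starts of 4 transcripts annotated as noncoding or with a retained intron. It was at 54.7 ± 17.6 in Cd4, 51.3 ± 14.4 in Cd8, 44.6 ± 22.7 in Tcell and 45.6 ± 7.88 in Bcell, and its Cd4 to Cd8 difference was 0.07 ± 0.117 (log2, SE, adjusted p = 0.817, edgeR). With promoter peaks alone, the Runx3 log2 fold change was -1.79 instead of -0.59, and that against Bcell was 3.68 instead of 0.80. For Runx3 this setting holds only the start peak of the long transcript and leaves out the Runx3-202 start, so it is not a separate result. In Bcell both inner peaks were thus above the start peak in mean level, and in Cd8 both were below it.

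Zbtb7b encodes the CD4 lineage factor, and both of its tested peaks were higher in Cd4. Its gene start peak was at 71.1 ± 23.3 peak CPM in Cd4 and 24.1 ± 10.3 in Cd8 (SD, n = 20 each), a log2 fold change of 1.67 ± 0.137 (SE). The peak 6560 bases in, which covers the starts of 2 shorter transcripts, was at 94.5 ± 31.5 and 30.8 ± 8.76 peak CPM, a log2 fold change of 1.50 ± 0.113 (SE). Both of these were open in Bcell too, at 67.3 ± 8.82 and 58.4 ± 12.3 peak CPM (SD, n = 21). The intronic peak shown above, 12542 bases in, was lower there. It held 107 entries in Cd4, 16 in Cd8, 24 in Tcell and 17 in Bcell, or 23.9, 2.54, 10.0 and 1.08 peak CPM. Without the filter on low counts, 9 of the 11 Zbtb7b peaks were higher in Cd4 and 0 were higher in Cd8, beside 0.870% and 2.82% of all 181991 peaks.

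At Foxp3 most entries lay in a peak that is also counted for the neighbour Ppp1r3f. GENCODE starts the gene 12629 bases upstream of Foxp3-201. Other protein-coding transcripts start in between, from Foxp3-206 at 5923 bases in to Foxp3-202 at 6839 bases in, and no Foxp3 peak covers these starts. The shared peak, 736 bases in, was at 78.5 ± 20.0 peak CPM in Cd4, 53.5 ± 19.0 in Cd8 (SD, n = 20 each) and 53.9 ± 9.53 in Bcell (n = 21). This was the 1 Foxp3 peak tested, with a log2 fold change of 0.41 ± 0.105 (SE) in Cd4 against Cd8. The 3 Foxp3 peaks that no other gene shares, summed after the values had been seen, were at 18.3 ± 9.88 peak CPM in Cd4, 14.3 ± 8.61 in Cd8, 40.8 ± 22.5 in Tcell and 2.42 ± 1.78 in Bcell. The peak shown above held 53 entries in Tcell, in 14 of 20 mice, against 9 in Cd4, 4 in Cd8 and 5 in Bcell, or 22.1, 2.01, 0.628 and 0.317 peak CPM. The peak over the Foxp3-201 start was less uneven, at 16.3 ± 10.9, 10.9 ± 7.96 and 11.4 ± 7.04 peak CPM in Tcell, Cd4 and Cd8.

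At the 4 genes open in both lineages, 1 of 3 Tcf7 peaks tested passed and none at the others, beside 10.4% of all 7202 peaks tested. One intron 2 peak of Tcf7, 7379 bases in, was higher in Cd8, at 56.9 ± 15.3 against 44.4 ± 17.7 peak CPM (SD, n = 20 each), a log2 fold change of -0.38 ± 0.121 (SE, adjusted p = 0.0265, edgeR). It lost its call in 8 of 26 alternatives (adjusted p from 0.00843 to 0.0714). None of the 6 Lef1, 3 Bcl11b and 1 Gata3 peaks tested passed. Without the filter, 2 of 22 Bcl11b, 1 of 10 Gata3, 1 of 28 Lef1 and the same 1 of 12 Tcf7 peaks were higher in Cd8. Another Lef1 peak was higher in Cd4. Of all 181991 peaks tested without the filter, 2.82% were higher in Cd8 and 0.870% higher in Cd4.

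The Tcell cluster was nearer to Cd4 than to Cd8 for the coreceptors and Zbtb7b, and below both for Tcf7, Lef1 and Bcl11b. Against Cd4, 6 of 10 genes passed, 1 higher and 5 lower, beside 18.4% of all genes. Against Cd8 all 10 passed, 4 higher and 6 lower, beside 20.0% of all genes. Lef1 fell furthest below both, at 313, 477 and 823 CPM in the lowest, median and highest mouse of Tcell against 672, 841 and 970 CPM in Cd4, a log2 fold change of -0.74 ± 0.0565 (SE, adjusted p = 4.85e-29, edgeR). No mouse had more Lef1 in Tcell than in Cd4 or in Cd8. With promoter peaks alone the Lef1 value was -0.38 against Cd4 (adjusted p = 0.0166, edgeR) and -0.33 against Cd8 (adjusted p = 0.0431, edgeR), and the Tcf7 fold changes there, -0.48 and -0.42, were the larger falls. Tcf7 was at 328 ± 57.7 CPM in Tcell (SD, n = 20), lower than in Cd4 by a log2 fold change of -0.36 ± 0.0669 (SE) in 19 of 20 mice. Bcl11b was at 444 ± 82.3 CPM in Tcell (SD, n = 20), with log2 fold changes of -0.27 ± 0.0592 against Cd4 and -0.19 ± 0.0573 against Cd8 (SE). The first lost its call with promoter peaks alone (-0.13, adjusted p = 0.764, edgeR). The second turned sign there (0.08) and lost its call in 3 more of its 30 alternatives, DESeq2 (-0.15), nuclei of at least median depth (-0.17) and the fit without D3_C replicate 3 (-0.15).

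Cd4 in Tcell was at 0, 57.1 and 107 CPM and Zbtb7b at 187, 286 and 405 CPM (lowest, median and highest mouse), lower than in Cd4 by log2 fold changes of -0.48 ± 0.158 and -0.32 ± 0.071 (SE) and higher than in Cd8 by 1.15 ± 0.190 and 1.396 ± 0.0861. Against Cd4, the call of Cd4 was lost in nuclei of at least median depth (-0.34, adjusted p = 0.305, edgeR) and that of Zbtb7b with promoter peaks alone (-0.11, adjusted p = 0.763, edgeR). Cd8a and Cd8b1 were lower in Tcell than in Cd8 in 20 of 20 mice, by log2 fold changes of -2.23 ± 0.206 and -1.84 ± 0.146 (SE). They did not pass against Cd4, with values of 0.66 ± 0.332 and 0.08 ± 0.204. Foxp3 was the gene higher in Tcell than in Cd4, by 0.32 ± 0.103 (adjusted p = 0.0179, edgeR) in 15 of 20 mice. Promoter peaks alone are, for Foxp3, the 2 shared with Ppp1r3f. They leave out the peak shown above and lie near no Foxp3 transcript start but that of Foxp3-209. Their value was -2.55e-05. The call was also lost in 5 other alternatives, among them leaving out D0_RT replicate 1, D0_RT replicate 3, D1_CL replicate 1 or D7_C replicate 3 (0.27 to 0.28). Gata3 was higher than in Cd8 by 0.21 ± 0.0748 (adjusted p = 0.0309, edgeR), a call lost in 15 of 29 alternatives, 13 of which leave out 1 mouse.

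Against Bcell, with the 3 T cell clusters weighted equally, 9 genes were higher and Zbtb7b was lower, beside 64.5% of all genes. The median log2 fold change of the 10 genes was 3.09 against -0.03 over all genes. Bcl11b differed most, at 485 ± 61.9 CPM in the T cell clusters (SD, n = 20) and 7.98 ± 4.98 CPM in Bcell (SD, n = 21), a log2 fold change of 5.84 ± 0.073 (SE). Cd4, Cd8a, Cd8b1 and Tcf7 rose by 4.66 ± 0.19, 4.59 ± 0.282, 4.90 ± 0.191 and 3.52 ± 0.0588, and Gata3 and Lef1 by 2.66 ± 0.061 and 2.25 ± 0.0415 (log2, SE). Foxp3 and Runx3 rose by 0.94 ± 0.0625 and 0.80 ± 0.0505. Zbtb7b had a log2 fold change of -0.16 ± 0.0415, yet its mean levels were 250 and 248 CPM and 10 of 20 mice were higher in the T cell clusters. With promoter peaks alone the Lef1 value was 1.04 and the Zbtb7b value -0.46, both still past the threshold.

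The wider T cell programme was followed in lists of genes, whose counts are to be read beside the 17.9% of all genes called in Cd4 against Cd8 and the 18.4% and 20.0% in Tcell against Cd4 and Cd8. A gene could pass the filter on low counts through 1 cluster alone. The direction of a tested list gene is therefore not independent of that filter. Of the cytotoxic genes, 7 of 16 were tested between Cd4 and Cd8 and all 7 were higher in Cd8. Their median log2 fold change was -0.86 beside 0.01 over all genes, and the other 9 were too sparse to test. Summed over all 16 without the filter, the list was at 395 ± 68.6 CPM in Cd4 and 854 ± 68.0 CPM in Cd8 (SD, n = 20 each). Eomes, a T-box factor of effector and memory CD8 cells, was at 19.6 CPM in Cd4 and 80.3 CPM in Cd8, Cd160 at 28.1 and 78.7 CPM, the NK receptor chain gene Klrd1 at 27.0 and 79.7 CPM, and Zfp683 (Hobit) at 31.6 and 59.2 CPM. Of the helper and regulatory genes, 9 of 17 were tested, 3 were higher in Cd4 and 1 was lower. Cd40lg, the helper ligand for B cells, was at 108 CPM in Cd4 and 43.4 CPM in Cd8, Ctla4 at 87.5 and 42.8 CPM and Il2ra at 227 and 156 CPM, while Ikzf2 (Helios) was at 77.4 and 148 CPM. In Tcell against Cd4, 7 of these 9 were higher and 2 lower, with a median log2 fold change of 0.44 beside -0.00 over all genes.

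Of the partners and regulators of the lineage, 17 of 18 were tested between Cd4 and Cd8, 5 were higher in Cd4 and 3 lower. The largest was Tcf12, the E protein HEB, at 132 CPM in Cd4 and 208 CPM in Cd8, followed by Patz1 at 126 and 103 CPM, Foxo1 at 263 and 300 CPM and Ikzf3 at 314 and 331 CPM. Of the 8 genes on the naive and recirculation list, 2 were higher in Cd4 and 3 higher in Cd8. The largest difference was at the integrin gene Itgae, at 102 and 233 CPM, and is not read as one of recirculation. Cd27 was at 104 and 134 CPM and Cd28 at 229 and 175 CPM. Of the 12 T cell markers, 1 (Cd5) was higher in Cd4 and 2 were higher in Cd8, a share near that of all genes. Of the NK and innate lymphoid markers, 3 of 9 were tested, and Il2rb, at 23.3 CPM in Cd4 and 98.0 CPM in Cd8, was the 1 that passed. All 3 were higher in Tcell than in Cd4 and in Cd8. The B cell markers had 1 higher and 3 lower of 8 in Cd4 against Cd8, and the myeloid and adipocyte markers had 1 gene tested each, neither of which passed.

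The genes whose mean levels over the 12 clusters most resembled a member were described without a test. By Pearson correlation of log2(mean CPM + 1), St8sia1 (0.938), Fyb (0.926) and Sema4f (0.909) were most like Cd4, and Racgap1 (0.935), Gpr89 (0.922) and Tmem221 (0.916) most like Cd8a. Zbtb7b had no close match, the highest being Pi4k2b at 0.753 and 2 annotated copies of Zc3h11a at 0.729. Foxp3 was most like Ptprn (0.979), Ppp1r3f (0.970), with which it shares peaks, and Wdr82 (0.965), and Gata3 most like Olfr525 (0.975), Fam240a (0.969) and Faah (0.966). The 12 points share libraries and depth.

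Cold exposure and CL were then compared with D0_RT within each T cell cluster, which asks whether the lineage genes moved with beiging. Of the 156 tests of a member against D0_RT, 0 passed an adjusted p of 0.05 in edgeR and 15 had an unadjusted p under 0.05. DESeq2 also called 0. Of all genes tested, 536 to 979 of 9617 in Cd4 had an unadjusted p under 0.05 in a contrast with D0_RT. The range was 548 to 1239 of 10375 in Cd8 and 257 to 427 of 5824 in Tcell. The 4 pairs of Cd4 in Cd8, Cd8a in Cd4, and Cd8a and Cd8b1 in Tcell were under the filter on low counts. In the Cd4 cluster the share of all genes called was 0.0104% for D1_C and D3_C, 0.0208% for D7_C and D1_CL, 0 for D3_CL and 0.114% for D7_CL. In Cd8 it was 0.0386% for D1_C, 0.00964% for D7_C, 0.183% for D1_CL, 0.0482% for D7_CL and 0 for D3_C and D3_CL. In Tcell it was 0.0172% for D3_C, 0.0515% for D1_CL and D7_CL, and 0 for D1_C, D7_C and D3_CL. Log2 fold changes ran from -1.24 to 0.51 with a median standard error of 0.196. Of the 78 tests of CL against cold at the same day, 0 passed, 8 had an unadjusted p under 0.05, and fold changes ran from -0.77 to 1.02 on the log2 scale. DESeq2 called 0 there too. In these contrasts 476 to 838 of 9617 genes in Cd4 had an unadjusted p under 0.05. The range was 499 to 865 of 10375 in Cd8 and 254 to 348 of 5824 in Tcell. The share of all genes called was 0.0104% for day 3 in Cd4, 0.0193% for day 3 in Cd8 and 0 elsewhere.

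**Figure D5:**
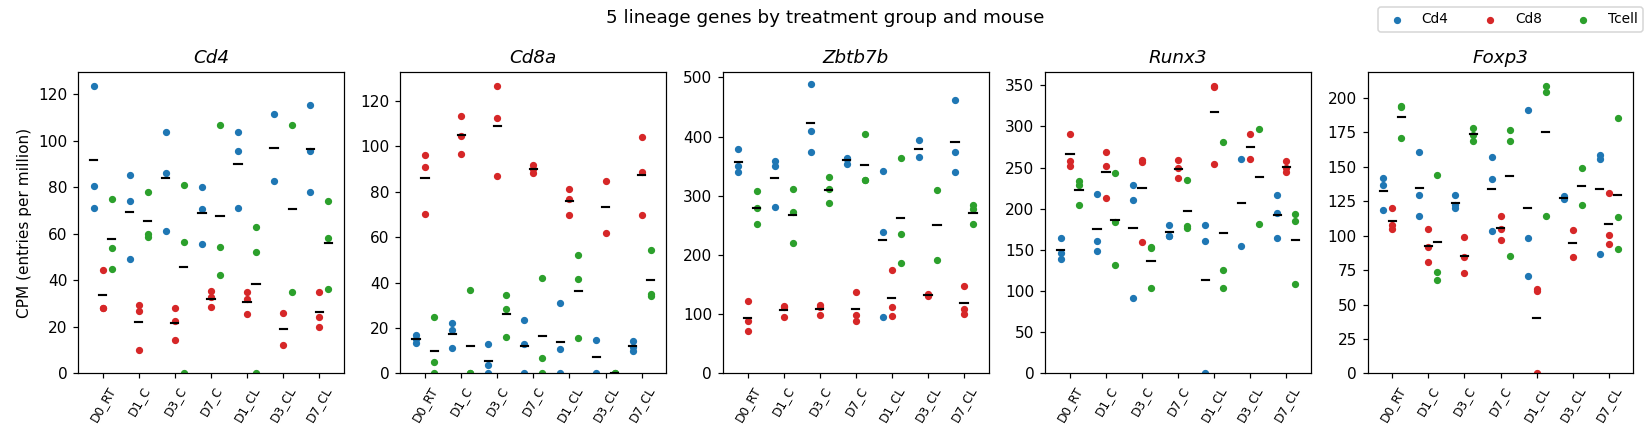
CPM of 5 of the genes in each mouse (points) and the group mean (lines) over the 7 groups, in the Cd4, Cd8 and Tcell clusters, with axes from 0. Cd8a of Cd4 and Cd8 does not overlap in any group, Zbtb7b overlaps in D1_CL alone, and the Foxp3 mean of Cd8 is lowest in D1_CL at 40.5 CPM.

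Cd4 in the Cd4 cluster was at 70.8, 80.3 and 123 CPM in the 3 D0_RT mice, 55.5, 70.8 and 80.1 CPM in D7_C and 77.8, 95.5 and 115 CPM in D7_CL, ranges that overlap. Cd8a in the Cd8 cluster was at 70.3, 90.9 and 96.2 CPM in D0_RT, 96.6, 105 and 113 CPM in D1_C, 87.1, 113 and 126 CPM in D3_C, 88.1, 89.9 and 91.5 CPM in D7_C, 69.7, 76.8 and 81.2 CPM in D1_CL, 61.8 and 84.9 CPM in the 2 D3_CL mice and 69.8, 88.7 and 104 CPM in D7_CL. The lowest D1_C mouse, at 96.6 CPM, was just above the highest D0_RT mouse, at 96.2 CPM, and the difference did not pass the test. How many of all genes separate these groups likewise was not counted. Zbtb7b in the Cd4 cluster was at 340, 351 and 379 CPM in D0_RT, 354, 362 and 364 CPM in D7_C and 340, 373 and 461 CPM in D7_CL. Its group means ranged from 226 CPM in D1_CL to 424 CPM in D3_C, and the lowest mouse of D1_CL was again the library of 16 nuclei.

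Foxp3 came nearest to the threshold. In the Cd8 cluster it was at 105, 108 and 120 CPM in the D0_RT mice and at 0, 59.99 and 61.4 CPM in D1_CL, a log2 fold change of -0.98 ± 0.273 (SE, adjusted p = 0.083, edgeR). The groups did not overlap, though the share of all genes that separate so was not counted. The value of 0 belonged to the library of 33 nuclei. In the Tcell cluster Foxp3 was at 171, 194 and 194 CPM in D0_RT and 68.0, 73.5 and 144 CPM in D1_C, a log2 fold change of -1.05 ± 0.285 (SE, adjusted p = 0.525, edgeR).

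D1_CL had the lowest group mean for Foxp3, Tcf7, Lef1 and Bcl11b in both the Cd4 and Cd8 clusters. Bcl11b in Cd4 was at 439 CPM in D1_CL and 596 CPM in D0_RT, and Tcf7 in Cd8 at 325 and 463 CPM. The 12 T cell markers moved with them: their summed level was 1934 to 2187 CPM in the D1_CL mice of the Cd4 cluster and 2606 to 2704 CPM in the D0_RT mice, and 2232 to 2451 against 2610.0 to 2639 CPM in the Cd8 cluster. The 8 B cell markers summed to 95.7 to 337 CPM in D1_CL and 391 to 415 CPM in D0_RT in the Cd4 cluster, and to 279 to 469 against 339 to 431 CPM in the Cd8 cluster, where the groups overlapped. D1_CL nuclei were also shallower, with a median of 509 to 696 entries per nucleus in the Cd4 cluster against 854 to 1292 in D0_RT. The part of depth and of these markers in the members' values was not tested.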

How the data were processed

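Inguinal fat nuclei of 21 mice were profiled by single-nucleus ATAC-seq. The authors aligned reads to mm10 with Bowtie2 processed them with SAMtools and Signac, called peaks with MACS2 on the pooled nuclei of each initial cluster and merged them, and deposited a peak by nucleus matrix of counts together with a table of each nucleus's mouse, group and cluster. The deposited counts hold 65588856 entries of 1 and 145 stored zeros over 189598 peaks and 32552 nuclei, so they record presence and not read depth. The 4 GEO samples are sequencing lanes that pool all mice, and mice, groups and clusters were taken from the deposited table, and 0 columns were left unmapped. The mice carry 4218 barcode sequences in common, told apart by a suffix that matched the mouse for every nucleus.

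Entries were summed per mouse and cluster, keeping sums of at least 10 nuclei, and per protein-coding gene of GENCODE M21 over peaks on the gene body and 2000 bases upstream. A peak on several genes counts for each. Peak coordinates are as deposited, 0 peaks ran past a GRCm38 chromosome end, and the smallest end minus start was 200, so starts may be 0-based and windows may be off by 1 base. Cluster contrasts came from 1 edgeR 4.0.16 quasi-likelihood fit of the 4 lymphocyte clusters with TMM scaling and the mouse as a block. Group contrasts came from 1 fit per T cell cluster. Peaks were fitted over Cd4 and Cd8 with the mouse as a block. Features passed filterByExpr (minimum count 10, minimum total 15), p-values were Benjamini-Hochberg adjusted over all features, and the threshold was 0.05. The T cell libraries held 10453 to 617121 gene entries each, which sets the precision. The study describes 3 batches run independently, and which mice each batch held is not given in the sources used here, so no comparison within batches was made. The fits were tested on simulated data. DESeq2 1.42.0 was an alternative, in R 4.3.3. Python 3.11.15 with scipy 1.17.1 and pysam 0.24.0 did the rest.

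Named peaks were to be the 12 member peaks with the largest fold changes past the threshold and those at gene starts. Fewer than 12 passed, so all that passed were named. Some sparse peaks and peaks outside the rule were named in addition. Like genes were the 3 with the highest correlation among genes of at least 20 CPM in a cluster. Named list genes were the 4 with the largest fold changes past the threshold per list. Some list genes that this rule names are not reported here. The members and lists were chosen with earlier results of these data known. The peaks printed as sequence were chosen after their values were seen.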

Additional observations from a re-analysis of the deposited data

Results flagged for a closer look

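All 10 members were scanned for groups in which all 3 mice shared the sign of Cd4 minus Cd8, with opposite signs between groups. Only Tcf7 met this rule. With 10 genes and several groups scanned, such a pattern can arise by chance. In D1_C all 3 mice, and in D3_C all 3 mice, had more Tcf7 in Cd4, by means of 16.2 ± 8.02 and 25.9 ± 20.1 CPM (SD, n = 3 each). In D7_CL all 3 mice had more in Cd8, with a mean Cd4 minus Cd8 difference of -51.0 ± 50.1 CPM. The difference between these groups was not tested. Across all 20 mice Tcf7 was higher in Cd4 in 10, with a log2 fold change of -0.03 ± 0.0492 (SE, adjusted p = 0.715, edgeR).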

How the results depend on the processing

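Counts of genes or peaks past the threshold moved by over 1.5 times with promoter peaks alone and without the filter on low counts. With promoter peaks alone, 8 members could be tested, and 2 passed in Tcell against Cd4 and 6 in Tcell against Cd8. Without the filter on low counts, 25 member peaks passed in Cd4 against Cd8. Motif shares were judged by another rule, whether they left the exact 95% interval of the main share, and the following did. In whole peaks instead of 300 bases, 34.2% of member peaks held the RUNX, 14.4% the GATA, 29.7% the TCF/LEF and 29.7% the E-box letters, beside 33.0%, 20.4%, 29.3% and 28.7% of all peaks. Signs turned for Tcf7 in Cd4 against Cd8 (0.0627), Foxp3 in Tcell against Cd4 (-2.55e-05) and Bcl11b in Tcell against Cd8 (0.0838) with promoter peaks alone, and for Gata3 in Cd4 against Cd8 in nuclei of at least median depth (-0.0500). With 1 mouse left out, Gata3 in Cd4 against Cd8 ran from -0.00582 to 0.0454 and Cd8b1 in Tcell against Cd4 from -0.110 to 0.127. The cause was not tested. With 1 mouse left out, 6 members passed in Cd4 against Cd8, 5 to 6 in Tcell against Cd4, 8 to 10 in Tcell against Cd8 and 10 against Bcell, and 6 to 7 member peaks passed. Leaving out the 3 mice with fewest T cell nuclei, chosen after seeing the data, gave 6, 6, 10 and 10 members and 7 peaks.

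A replicate block in the group fits called 0 of 156 and 0 of 78. Deviations of same-numbered mice from their group means correlated from -0.0458 to 0.0664. Median correlations of same-numbered and other mice were 0.00274 and 0.00109 in Cd4, 0.00247 and -0.000379 in Cd8, and 0.00264 and -0.00195 in Tcell. Because most genes held few entries per mouse, this check cannot decide whether replicate numbers pair the mice. Most member peaks held too few entries per mouse to be tested, and group contrasts had 2 or 3 mice.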
